A study of Mus musculus with 20 samples.

Results

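Heme is built by a chain of enzymes shared by nearly all cells, and 9 genes of that chain were followed through 10 sorted populations of mouse blood-forming cells. The genes are Alas1, Alas2, Alad, Uros, Urod, Cpox, Ppox and Fech, which encode enzymes, and Abcb10, which encodes a transporter of the inner mitochondrial membrane. They were chosen by name, with earlier results of these data known, out of 18193 genes with a probe set of their own on the array. A gene was read from probe sets that the platform annotation gives to it alone, which left 22 probe sets for the 9 genes, and the probe set with the highest mean over the 20 arrays stood for the gene. The 9 genes were among the 14063 that passed the filter on low values, which asked that the highest population mean lie above the median of all values.

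The study measured total RNA of C57BL/6 mice on Affymetrix Mouse Genome 430 2.0 arrays, with 2 samples, labelled biological replicates, of each population. The populations are KSL cells (KSL), Lineage marker(-) cells (LinNeg), B220(+) B lymphocytes (B), CD4(+) T lymphocytes (CD4T), CD8(+) T lymphocytes (CD8T) and NK1.1+ NK cells (NK). The others are CD3ε(+)NK1.1(+) NKT cells (NKT), Ter119(+) erythroblasts (Erythroblast), Gr-1(+) neutrophils (Neutrophil) and Mac-1(+) monocytes/macrophages (Monocyte). KSL is the usual abbreviation for a Kit-positive, Sca-1-positive, lineage-negative fraction enriched in stem cells, and LinNeg as labelled is a broader fraction without mature surface markers. No treatment or altered allele is given for any group, and the sources used here name neither the animals and their age nor the tissue and the full sorting gates. Each array started from the RNA of 3000 cells, amplified in 2 cycles.

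Heme synthesis starts in the mitochondrion, where an ALA synthase joins glycine and succinyl-CoA. ALAS1 is the synthase of most tissues and its production is held down by heme, while ALAS2 is the synthase of red cell precursors. ALAD, UROS and UROD then act in the cytosol to build and trim the porphyrin ring, and CPOX, PPOX and FECH finish it in the mitochondrion, where FECH inserts iron. Erythroblasts make heme for hemoglobin, whereas phagocytes use it in enzymes such as the NADPH oxidase.

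The sequences upstream of the genes at the chain's entry and of Cpox are shown. Alas2 was highest in erythroblasts and Alas1 in myeloid cells. Cpox, like Alas2, was highest in erythroblasts, and it had the largest difference of the members between LinNeg and KSL. Alad, Uros, Urod and Fech were also called higher in LinNeg than in KSL, and their sequences are not shown. Each sequence shown is the 250 bases before an annotated start in RefSeq GRCm38.p6, written 5′ to 3′ on the gene's strand. They lie at chrX:150547167-150547416 (plus strand) for Alas2, chr9:106247955-106248204 (minus strand, the outer of 2 entries) for Alas1 and chr16:58669958-58670207 (plus strand) for Cpox. Capitals mark matches on either strand to AGATAA, the core bound by GATA factors, in which the leading A may also be T and the closing A may also be G, or to CCNCNCCC, the CACC type of box bound by Krüppel-like factors.
Alas2: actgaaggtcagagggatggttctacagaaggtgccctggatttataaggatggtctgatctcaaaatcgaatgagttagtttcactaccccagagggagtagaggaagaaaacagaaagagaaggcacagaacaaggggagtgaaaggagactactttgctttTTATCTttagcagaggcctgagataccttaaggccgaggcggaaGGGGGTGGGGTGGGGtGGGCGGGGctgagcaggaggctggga
Alas1: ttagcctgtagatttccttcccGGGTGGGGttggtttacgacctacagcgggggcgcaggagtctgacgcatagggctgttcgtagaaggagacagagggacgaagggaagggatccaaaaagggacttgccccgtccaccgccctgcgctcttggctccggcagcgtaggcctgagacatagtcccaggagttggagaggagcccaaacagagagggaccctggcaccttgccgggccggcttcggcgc
Cpox: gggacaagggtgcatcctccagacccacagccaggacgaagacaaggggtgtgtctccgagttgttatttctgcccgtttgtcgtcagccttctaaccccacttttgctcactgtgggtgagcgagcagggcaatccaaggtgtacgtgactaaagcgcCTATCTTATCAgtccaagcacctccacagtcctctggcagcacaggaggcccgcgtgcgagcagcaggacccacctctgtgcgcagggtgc
The Alas2 window held 1 GATA core, beginning 86 bases before the start, and 4 CACC matches nearer the start, of which 3 overlap and the last stands 1 base apart. The Cpox window held 2 GATA cores that share a base, and no CACC match. The Alas1 window held 1 CACC match and no GATA core. Entries were given for 8 members, in 11 windows. Of these members, 3 (Alas2, Cpox and Uros) had a GATA core in a window and 4 (Alas1, Alas2, Alad and Uros) had a CACC match. The pattern CCNCNCCC leaves some bases free. The Alad and Uros matches, the last Alas2 match and 1 match in the inner Alas1 window hold no CACC on either strand. Among 32851 windows of the same length over the genome, 26.5% held a GATA core and 45.9% a CACC match. These shares are per window, whereas a member was counted if any of its windows held a match, so the counts are not directly comparable. For Uros the GATA cores and the CACC match lay in different windows. A match is a description of the letters and does not show binding.

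In the text, values are the deposited linear intensities, which have no unit. Differences are on the scale log2(intensity + 6.75), where 6.75 is the 25th percentile of all values, so they understate changes of dim genes. A difference was called at an adjusted p under 0.05 (limma, Benjamini-Hochberg over the 14063 genes) with a size of at least 1, and values after ± beside differences are standard errors of the fit. Brightness differs between probe sets for technical reasons, so only changes, not levels, are compared between genes. The p-values measure only the spread between these samples, since no source names the animals behind them.

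The labels were checked against marker genes. In the Erythroblast arrays the 10 erythroid markers with a probe set of their own summed to 53835 and 42296. That sum was 4309 and 4255 in LinNeg, 396 and 168 in KSL, and 140 to 437 in the other arrays. The 6 pan-leukocyte markers summed to 142 and 225 in Erythroblast, with 5 and 4 of the 6 below the pseudocount, against 6963 to 40602 elsewhere. The NK arrays carried the 9 macrophage markers at sums of 12850 and 10423, above the 5493 and 7793 of Monocyte, and the 5 neutrophil markers at 15027 and 11868. The Monocyte arrays carried the neutrophil markers at 59296 and 49122, near the 68727 and 57117 of Neutrophil. Trimmed means were 99.96 to 99.97 on every array and median intensities 20.3 to 26.8. Probe sets brighter than 100 made up 19.4% to 25.3% of an array, with the smallest shares in Erythroblast, at 19.4% and 19.8%. The Gapdh 3′ to 5′ ratio ran from 2.36 to 6.10 and was highest in Erythroblast, at 5.86 and 6.10, and its part in the results below was not tested.

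Erythroblasts held the highest level of 8 of the 9 genes and the lowest level of Alas1. Against the mean of the 7 other mature populations, 8 members were called higher (17.6% of all genes tested were) and 1 was called lower (28.8% were). In either direction 9 of 9 were called, against 46.4% of all genes. The median difference of the members was 5.35, and that of all genes was -0.13. These are bulk samples, so fewer cells of a type and less RNA per cell cannot be told apart. The plot of intensities by population shows each array.

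**Figure D1:**
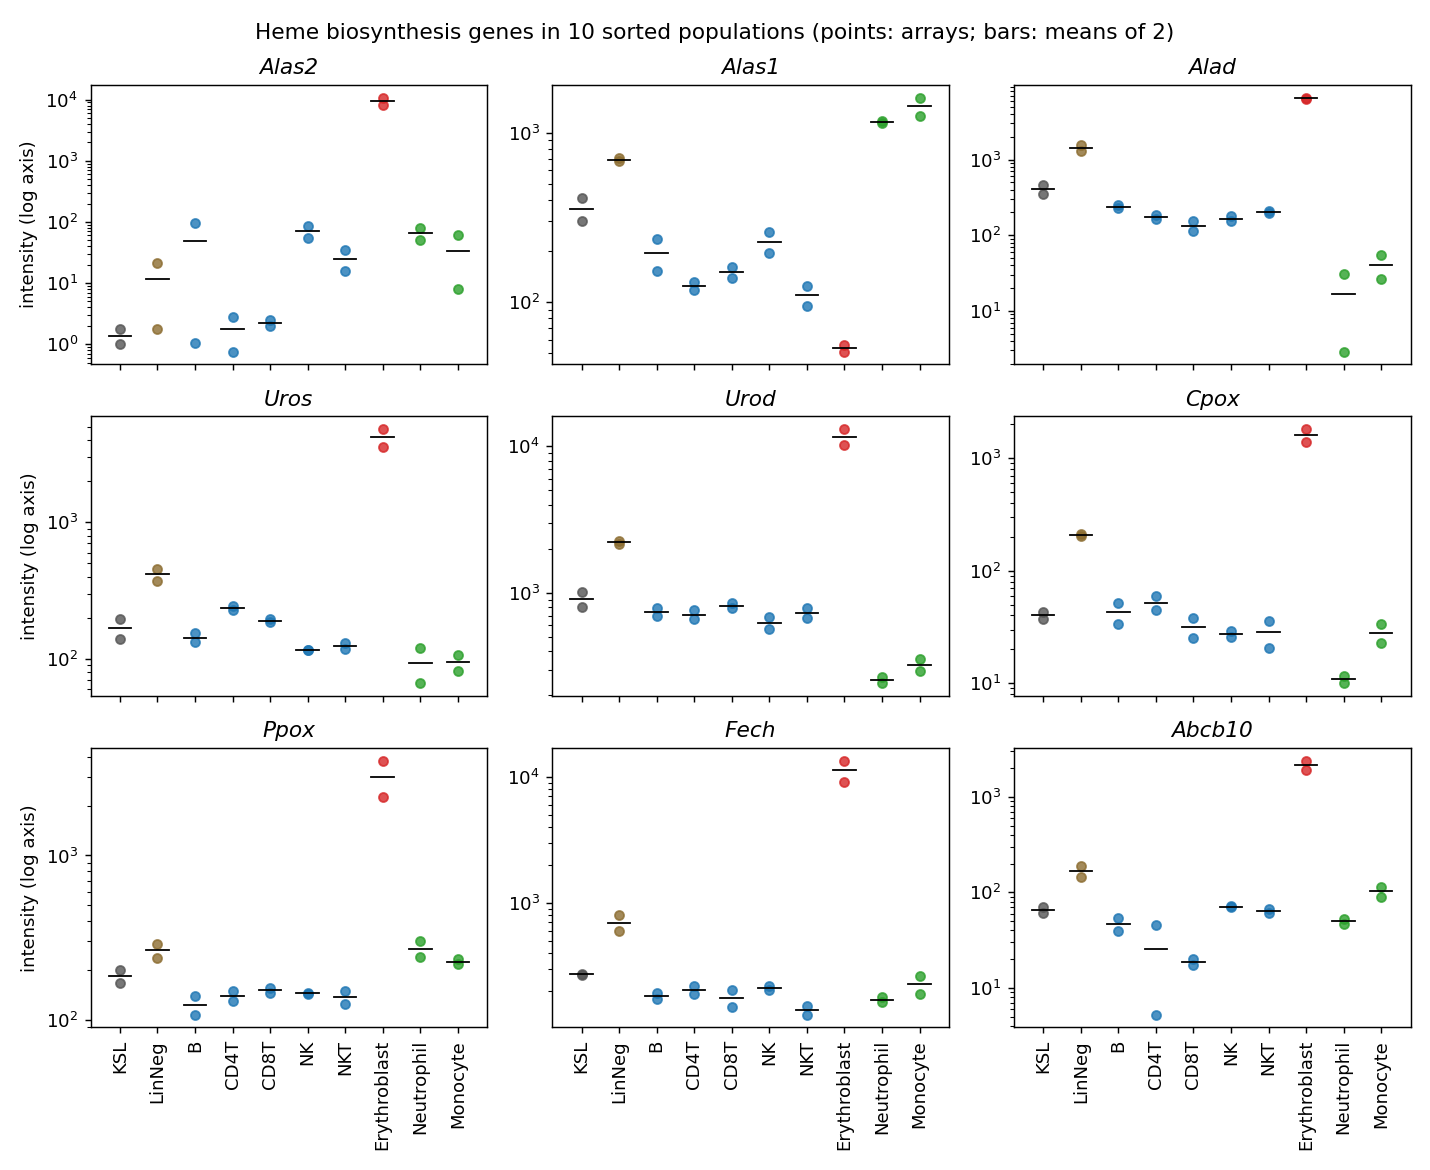
Intensity (log axis, no unit) of the 9 genes in the 20 arrays, by population; points are arrays and bars are means of 2. The Erythroblast points lie above the 18 other arrays in every panel except Alas1, where they lie below them.

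The genes for the ALA synthases differed in opposite directions. Alas2, the erythroid synthase, read 10792 and 8033 in Erythroblast, 1.76 and 21.3 in LinNeg, and 1.76 and 0.996 in KSL. In the 14 arrays of the other mature populations it ran from 0.758 to 97.1 with a median of 25.2. The Erythroblast arrays thus stood far above the 18 others, with no overlap. Alas2 differed by 8.42 ± 0.64 from the other mature populations (adjusted p = 7.3e-10). Against LinNeg the difference was 9.24 ± 0.85 (adjusted p = 2.3e-08). Both LinNeg arrays read below the median of all values, 22.9, and 1 of them below the pseudocount, so the size of this difference is set in part by the pseudocount and by single arrays. It was 10.15 with the pseudocount at the 5th percentile and 8.14 with it at the median, and 8.38 without LinNeg replicate 1 and 10.1 without LinNeg replicate 2.

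Alas1, the housekeeping synthase, ran the other way. It read 51.0 and 55.6 in Erythroblast, 683 and 704 in LinNeg, and 413 and 299 in KSL. Its lowest array outside erythroblasts read 95.2, in NKT, so the Erythroblast arrays lay below the other 18. Alas1 fell by 3.54 ± 0.23 from LinNeg to Erythroblast (adjusted p = 1.9e-10) and was lower by 2.28 ± 0.17 than in the other mature populations (difference -2.28, adjusted p = 6.8e-10). Both Alas1 probe sets were called lower in erythroblasts. Alas1 was the only member lower there.

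The cytosolic steps were all higher in erythroblasts. Alad, which joins ALA molecules into porphobilinogen, read 6591 and 6322 in Erythroblast against 1301 and 1548 in LinNeg, and its difference from LinNeg was 2.18 ± 0.40 (adjusted p = 0.00012). Uros, which closes the ring, read 4818 and 3586 against 375 and 457, a difference of 3.31 ± 0.25 (adjusted p = 1.4e-09). Urod, which trims its acetate side chains, read 13082 and 10191 against 2268 and 2170, a difference of 2.38 ± 0.17 (adjusted p = 6.6e-10). In none of the 3 did the Erythroblast arrays overlap any other array. Against the other mature populations the differences were larger, at 5.89 ± 0.30 for Alad, 4.89 ± 0.19 for Uros and 4.36 ± 0.13 for Urod, with adjusted p of 2e-12, 2.7e-14 and 5.5e-16.

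The mitochondrial steps followed the same direction. Cpox, which oxidises coproporphyrinogen, read 1400 and 1810 in Erythroblast against 204 and 211 in LinNeg, a difference of 2.90 ± 0.32 (adjusted p = 3.1e-07). Ppox, the next oxidase, read 3780 and 2269 against 238 and 290, a difference of 3.45 ± 0.23 (adjusted p = 3.1e-10). Fech, which inserts iron, read 13389 and 9142 against 595 and 795, a difference of 3.99 ± 0.22 (adjusted p = 2.4e-11). For each of them every Erythroblast array exceeded every other array. Ppox was measured by 3 probe sets, and the dimmest gave 1.02 against LinNeg, which was not called (adjusted p = 0.19). Against the other mature populations Cpox differed by 5.48 ± 0.24, Ppox by 4.11 ± 0.17 and Fech by 5.85 ± 0.17 (adjusted p = 2.5e-13, 1.2e-13 and 4e-16).

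Abcb10, the transporter, read 2378 and 1919 in Erythroblast against 146 and 188 in LinNeg and 5.27 to 114 in the other mature populations, with no overlap. It differed by 3.64 ± 0.43 from LinNeg and by 5.35 ± 0.33 from the other mature populations (adjusted p = 7.4e-07 and 2.8e-11). Against LinNeg, 8 members were called higher (14.6% of all genes) and 1 lower (29.3% of all genes), and in either direction 9 of 9 against 43.9%. The median difference from LinNeg was 3.31 for the members and -0.19 for all genes. Of the 20 probe sets of the 8 genes other than Alas1, 19 were called higher in erythroblasts than in the other mature populations. The exception was a Fech probe set with a mean of 6.22, below the filter.

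LinNeg stood between KSL and Erythroblast for most of the chain. LinNeg arrays lay above both KSL arrays for 8 of the 9 genes, and 5 were called higher: Alad, Uros, Urod, Cpox and Fech. Of all genes, 2.45% were called higher in LinNeg and 5.53% were called in either direction, and no member was called lower (3.07% of all genes). The median difference was 1.29 for the members and -0.01 for all genes. LinNeg also carried the erythroid markers at more than 10 times the sum of either KSL array, and the part of that in these differences was not tested.

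**Figure D2:**
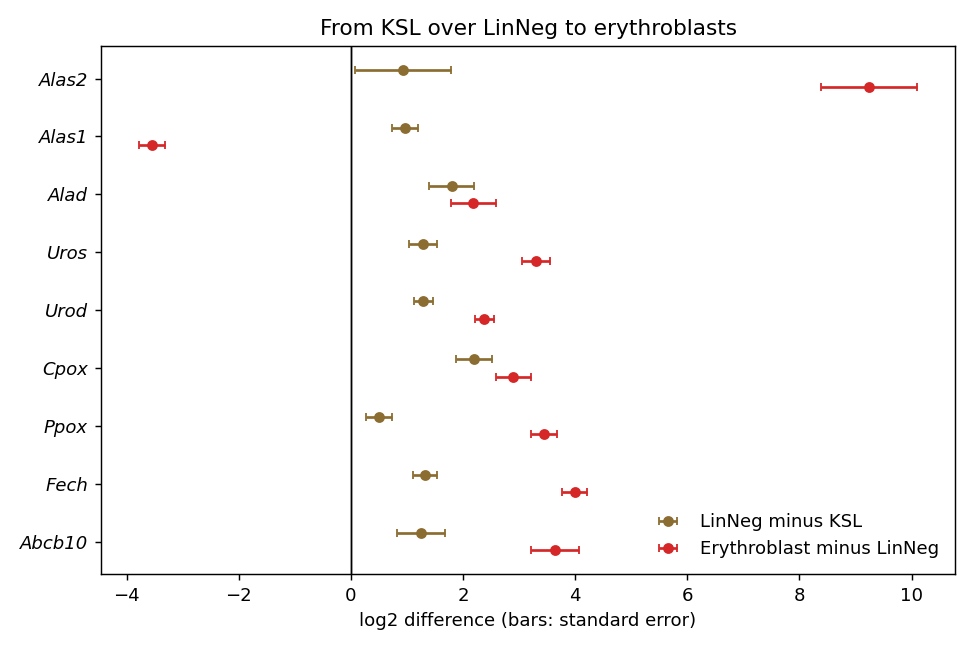
Log2 difference of each gene from KSL to LinNeg (brown) and from LinNeg to Erythroblast (red), with standard errors of the limma fit. Cpox and Alad have the largest first differences, at 2.19 and 1.80, Alas2 the largest second one, at 9.24, and Alas1 the only negative one, at -3.54.

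Cpox had the largest difference between LinNeg and KSL. It read 204 and 211 in LinNeg and 43.4 and 37.2 in KSL, a difference of 2.19 ± 0.32 (adjusted p = 3e-04). Its other probe sets gave 1.72 (called, adjusted p = 0.0026) and 0.77 (not called, adjusted p = 0.34). Urod read 1022 and 800 in KSL and was higher by 1.29 ± 0.17 in LinNeg (adjusted p = 9.3e-05), and its other probe set gave 1.36. Fech read 272 and 270 in KSL and was higher by 1.32 ± 0.22 in LinNeg (adjusted p = 0.00082). In all 3 the LinNeg arrays lay above KSL with no overlap.

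Alad read 458 and 356 in KSL and was higher by 1.80 ± 0.40 in LinNeg (adjusted p = 0.0077), and Uros read 194 and 140 and was higher by 1.29 ± 0.25 (adjusted p = 0.0027). Neither was called by its dimmer probe set, which gave 1.41 for Alad (adjusted p = 0.11) and 0.83 for Uros (adjusted p = 0.44), nor was Uros as the mean of its probe sets, at 1.06 (adjusted p = 0.075). The calls also rested on single arrays: without KSL replicate 2 the adjusted p was 0.10 for Alad and 0.066 for Uros, and 3 members stayed called, while without LinNeg replicate 2 it was 0.058 for Alad. No member passed a test against a difference of 1 (limma's treat), which called 0.583% of all genes, against 5.53% in the test against 0. Alas1 differed by 0.97 ± 0.23 (adjusted p = 0.011), just short of the minimum size, and by 1.19 (adjusted p = 0.014) without KSL replicate 1, which was called, and Ppox by 0.50 ± 0.23 (adjusted p = 0.22). Abcb10, at 70.8 and 61.1 in KSL, differed by 1.25 ± 0.43 (adjusted p = 0.087), while another of its probe sets gave 1.68 and was called (adjusted p = 0.0092). Alas2 differed by 0.93 ± 0.85 (adjusted p = 0.61), and its arrays overlapped.

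For each member the share of the total difference between KSL and Erythroblast that was already present in LinNeg was computed. On the log2 scale this share was 45.2% for Alad, 43.0% for Cpox, 35.2% for Urod, 28.1% for Uros, 25.6% for Abcb10 and 24.9% for Fech. It was 12.6% for Ppox and 9.13% for Alas2. The Alas2 share rests on readings near background, and it was 17.6% without LinNeg replicate 1 and 0.663% without LinNeg replicate 2. Ppox ran from 9.08% to 16.2% with 1 array left out. By other probe sets the share was 29.4% for Alad, 20.8% and 47.8% for Cpox, and 29.7% and -12% for Abcb10, so the order of the members is not fixed. Alas1 has no such share, because its level was higher in LinNeg than in KSL and lower in Erythroblast. Both steps share the LinNeg arrays, so the shares are a description and were not tested against each other.

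Between KSL and the mean of the 7 non-erythroid mature populations 2 members were called, against 23.5% of all genes. These were 1 higher (15.4% of all genes) and 1 lower (8.13%). Alad was higher in KSL by 1.91 ± 0.30 (adjusted p = 4.6e-05), with both KSL arrays above the 248.5 of the highest white cell array, but its dimmer probe set gave 0.12 (adjusted p = 0.84). Alas2 was lower, with a difference of -1.74 ± 0.64 (adjusted p = 0.035). Its arrays overlapped, both KSL arrays read below the pseudocount, and the adjusted p was 0.15 without KSL replicate 1, 0.18 without KSL replicate 2 and 0.082 without the NK arrays. The 7 others ranged from 0.16 for Ppox to 0.70 for Urod and were not called.

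Alas2 was also read at low levels outside erythroblasts, and these readings were set beside those of globin. In replicate 1 and 2 it read 97.1 and 1.03 in B, 54.8 and 85.8 in NK, 15.6 and 34.8 in NKT, and 0.758 and 2.77 in CD4T. It read 1.95 and 2.48 in CD8T, 79.8 and 50.3 in Neutrophil, and 60.0 and 8.14 in Monocyte. The 2 samples of B and of Monocyte lay far apart, and every population other than Erythroblast overlapped its neighbour in the order of levels. A probe set for adult beta globin, annotated to 4 symbols and so not read as a gene, gave 6594 and 147 in B and 4630 and 4408 in NK. It gave 830 and 1711 in NKT, 4033 and 3059 in Neutrophil, 2329 and 1108 in Monocyte, and 6.45 to 11.7 in the T cell arrays. In KSL it gave 160 and 213, and in LinNeg 307 and 2185. In B, CD4T, NKT, Neutrophil, Monocyte and LinNeg the array with the higher Alas2 reading also had the higher globin reading. In NK, CD8T and KSL the order was reversed. Each order rests on 2 arrays, and the Alas2 readings of CD4T, CD8T and KSL all lay below the pseudocount. The part of red cell RNA in the Alas2 readings was not tested. In the Erythroblast arrays this probe set read 10239 and 6709. A probe set for alpha globin, annotated to 2 symbols, read 10980 and 7772 in Erythroblast and 670.5 and 2.01 in B.

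**Figure D3:**
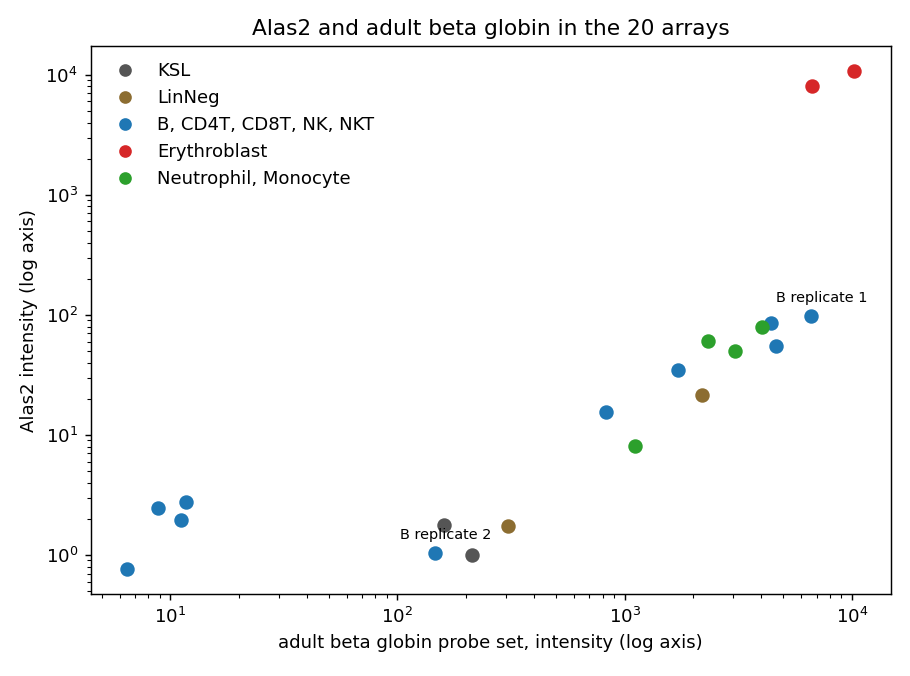
Alas2 intensity against the adult beta globin probe set in the 20 arrays, both on log axes, coloured by population. The 18 arrays other than Erythroblast stay at or below an Alas2 intensity of 97.1, with B replicate 1 at the top of them and B replicate 2 near the bottom.

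Among white cells the chain was not uniform, and its members had different orders of levels. In a limma F test among the 7 non-erythroid mature populations 8 of the 9 members differed, against 60.6% of all genes, and Fech did not pass (adjusted p = 0.19). With the mean of all probe sets of a gene, Ppox (adjusted p = 0.38) and Uros (adjusted p = 0.51) did not pass either. Alas1 had the largest F, at 86.4 (adjusted p = 5.8e-11), followed by Urod at 30.3 (adjusted p = 1e-07) and Alad at 23.5 (adjusted p = 6.5e-07). Between the 5 lymphoid and the 2 myeloid populations 3 members were called, against 29.7% of all genes: 2 higher in lymphoid cells (17.6% of all genes) and 1 lower (12.1%). The median difference was -0.11 for the members and 0.11 for all genes.

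**Figure D4:**
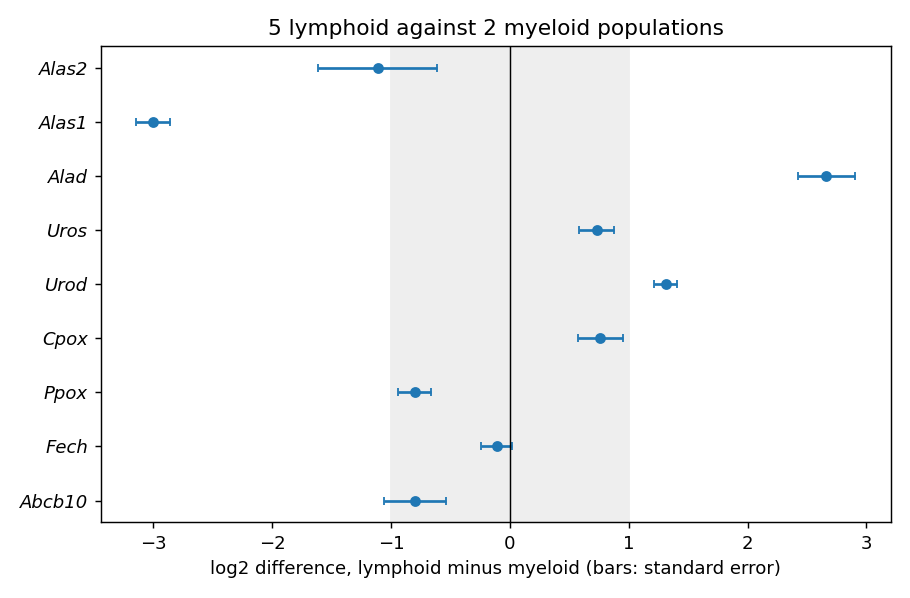
Log2 difference between the mean of 5 lymphoid and the mean of 2 myeloid populations for each gene, with standard errors; the grey band marks differences under 1. Alas1, at -3.00, and Alad and Urod, at 2.66 and 1.31, lie outside the band and were called, while Alas2, at -1.11, lies outside it and was not.

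Alas1 was highest in myeloid cells. It read 1608 and 1245 in Monocyte and 1166 and 1133 in Neutrophil, and 95.2 to 257 with a median of 145 in the 10 lymphoid arrays. All myeloid arrays lay above all lymphoid arrays, and the difference was -3.00 ± 0.14 (lymphoid minus myeloid, adjusted p = 6.1e-13). The second Alas1 probe set gave -2.89. The order of levels was Monocyte, Neutrophil, LinNeg, KSL, NK, B, CD8T, CD4T, NKT and Erythroblast, and the arrays of neighbours overlapped only between NK, B and CD8T and between CD4T and NKT. Within the lymphoid populations NK had the highest Alas1, at 257 and 195, and NK also carried the macrophage and neutrophil markers given above. Without the NK arrays the lymphoid to myeloid difference was -3.13.

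Alad and Urod, which catalyse cytosolic steps, were lower in the myeloid cells. Alad read 2.90 and 30.5 in Neutrophil and 54.0 and 26.7 in Monocyte, against 114 to 248.5 in the lymphoid arrays, a difference of 2.66 ± 0.24 (adjusted p = 9.7e-09). Its dimmer probe set gave 0.33 (adjusted p = 0.38), so the call rests on the brighter one. Urod read 268 and 242 in Neutrophil and 294 and 352 in Monocyte, against 566 to 848 in the lymphoid arrays, a difference of 1.31 ± 0.10 (adjusted p = 1e-09). Its other probe set gave 0.69 (adjusted p = 2.5e-05), which is under the minimum size. Neither gene's lymphoid and myeloid arrays overlapped.

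The remaining members were not called between lymphoid and myeloid cells. Ppox was below the minimum size, at -0.80 ± 0.14 (adjusted p = 4.8e-05), although its 4 myeloid arrays, at 217 to 300.4, lay above the 10 lymphoid arrays, at 107 to 156. Uros differed by 0.73 (adjusted p = 0.00026) and Cpox by 0.76 (adjusted p = 0.0022), and both had overlapping arrays. The other Uros probe set gave -0.73, the opposite sign, and another Cpox probe set gave 1.20 and was called. Abcb10 differed by -0.80 (adjusted p = 0.012), Fech by -0.11 (adjusted p = 0.51) and Alas2 by -1.11 (adjusted p = 0.069). Alas2 was called at -1.48 without B replicate 1 (adjusted p = 0.0023), at -1.65 without Monocyte replicate 2 (adjusted p = 0.017) and at -1.56 without the NK arrays (adjusted p = 0.019), and Abcb10 at -1.02 without CD4T replicate 1. By the probe set used, Fech stayed between 130 and 263 in all 14 white cell arrays. A dimmer Fech probe set was called between Monocyte and Neutrophil, as given below.

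Between Monocyte and Neutrophil 1 member was called, against 12.2% of all genes, with 9.56% of them higher and 2.62% lower in Monocyte. This was Alad, higher in Monocyte by 1.25 ± 0.40 (adjusted p = 0.034), with overlapping arrays, and without Neutrophil replicate 1 the difference was 0.28 (adjusted p = 0.65), and without Monocyte replicate 1 it was 0.82 (adjusted p = 0.28). Its dimmer probe set gave -1.51 (adjusted p = 0.049) and was called in the opposite direction. Cpox read 22.6 and 33.8 in Monocyte and 11.7 and 10.02 in Neutrophil. It differed by 0.97 ± 0.32 (adjusted p = 0.041), under the minimum size, and by 1.21 without Monocyte replicate 1. Its other probe sets gave 1.30 (called, adjusted p = 0.0085) and 1.18 (not called, adjusted p = 0.061). The mean of its probe sets gave 1.15 and was called (adjusted p = 0.0021). Fech differed by 0.37 (adjusted p = 0.28). Its other probe sets gave 1.44 (called, adjusted p = 0.0034), and 0.89 and -0.10, which were not called.

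Genes that supply the chain were grouped with the members by function. Among genes of transport and cofactors of heme synthesis, 18 were tested. From LinNeg to Erythroblast 11 were called higher, 4 were called lower and 3 were not called, against 14.6% and 29.3% of all genes, with a median of 1.91 against -0.19. Slc25a37, which carries iron into the mitochondrion, read 10434 and 7429 in Erythroblast and 161 and 213 in LinNeg, and rose by 5.52 ± 0.22. Its relative Slc25a28 fell by 1.11 ± 0.21, from 242 and 245 in LinNeg to 86.7 and 137. The pair of mitochondrial iron carriers moved in opposite directions, as did the ALA synthases, with no overlap of arrays in either gene.

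Both listed glycine transporters rose and both listed genes of succinyl-CoA ligase fell. Slc25a38, a mitochondrial glycine carrier, read 1714 and 1783 in Erythroblast against 142 and 213 in LinNeg, a difference of 3.28 ± 0.24, and Slc6a9, a glycine transporter of the cell surface, read 1838 and 1979 against 51.6 and 57.2, a difference of 4.97 ± 0.35. Suclg1 fell by 3.33 ± 0.22 and Sucla2 by 1.87 ± 0.19, and both encode subunits of succinyl-CoA ligase. Pgrmc1, a heme-binding membrane protein, fell by 2.17 ± 0.22. Fam210b, a mitochondrial protein, rose by 5.81 ± 0.45, and Tmem14c, a porphyrinogen transporter of the inner membrane, by 2.08 ± 0.22. Glrx5, of iron-sulfur cluster assembly, read 12183 and 8641 against 3001 and 2363 and rose by 1.94 ± 0.21. From KSL to LinNeg 3 of the 18 were called higher, namely Abcb6 (2.14), Tmem14c (1.60) and Glrx5 (1.56), and 0 were called lower, against 2.45% and 3.07% of all genes. With limma's treat test none of the 18 was called.

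**Figure D5:**
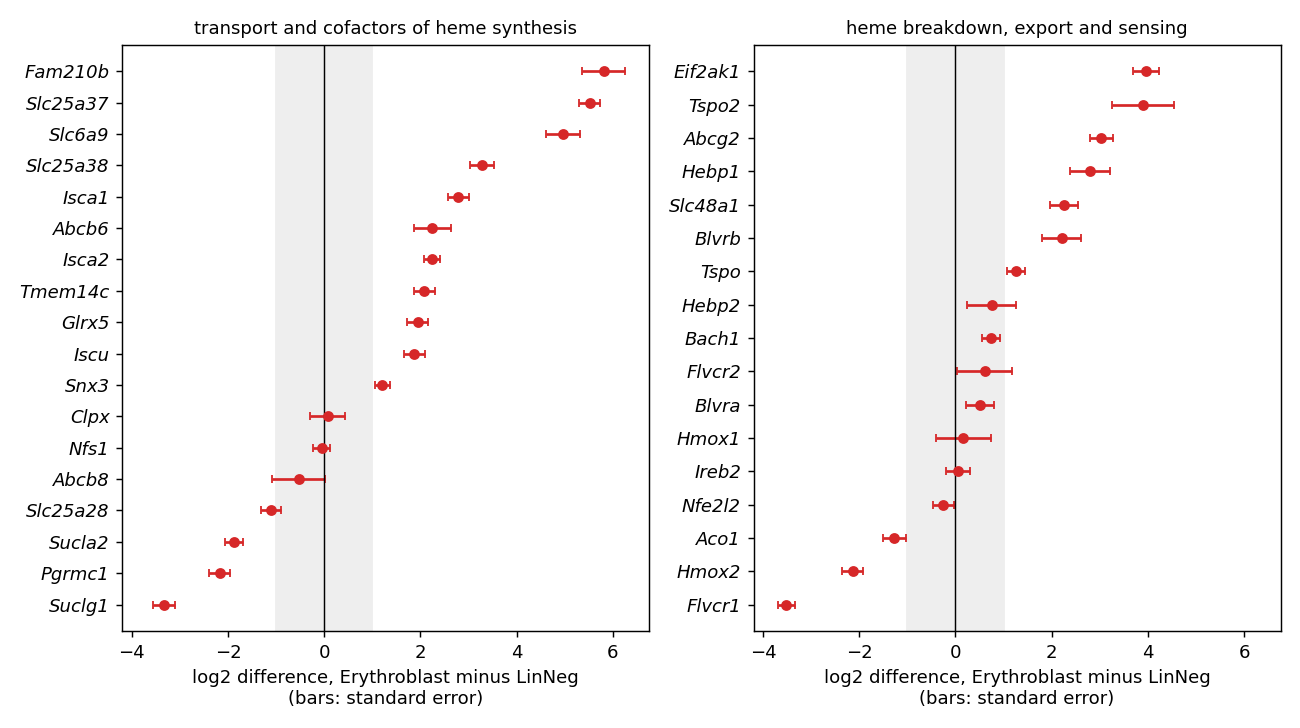
Log2 difference from LinNeg to Erythroblast for 18 genes of transport and cofactors (left) and 17 of breakdown, export and sensing (right), with standard errors; the grey band marks differences under 1. Fam210b and Slc25a37 lie at 5.81 and 5.52 on the left, and Flvcr1 lies lowest on the right, at -3.52.

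Of 17 genes of heme breakdown, export and sensing, 7 were called higher and 3 lower in Erythroblast than in LinNeg, against 14.6% and 29.3% of all genes, and the median was 0.74 against -0.19. Eif2ak1, the kinase that slows translation when heme is short, rose by 3.96 ± 0.27, from 109 and 94.8 to 2079 and 1363. Blvrb, a biliverdin reductase, rose by 2.21 ± 0.41 and had been higher by 3.89 ± 0.41 in LinNeg than in KSL. Flvcr1, described as a heme exporter, fell by 3.52 ± 0.18, from 479 and 429 to 35.3 and 31.7. Abcg2, of the same list, went the other way, from 531 to 579 in LinNeg up to 4216 to 4988 in Erythroblast. Hmox2, the constitutive heme oxygenase, fell by 2.14 ± 0.21, and Hmox1, the inducible one, read 30.1 and 7.25 in Erythroblast and 14.9 and 12.2 in LinNeg and was not called (adjusted p = 0.83).

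Among 7 erythroid regulators 6 were called higher and 1 lower in Erythroblast than in LinNeg, against 14.6% and 29.3% of all genes, with a median of 2.25 against -0.19. With limma's treat test 4 of the 7 were called. Klf1, an erythroid Krüppel-like factor, read 10148 and 7915 in Erythroblast, 2111 and 1670 in LinNeg and 253 and 47.5 in KSL. Gata1, the erythroid GATA factor, read 3191 and 2817, 946 and 595, and 183 and 89.97 in the same order. Both were called in both steps, with differences of 3.99 and 2.48 from KSL to LinNeg and of 2.25 and 1.99 from LinNeg to Erythroblast. From KSL to LinNeg limma's treat test called 1 of the 7 regulators. The first Klf1 step was 5.12 without KSL replicate 1 and 2.86 without KSL replicate 2. For Gata1 the steps were 2.15 and 2.32 without LinNeg replicate 1 and 1.99 each without KSL replicate 2, so their order is not fixed, and no test set the steps against each other. Ldb1, a cofactor of GATA factors, fell by 1.42 ± 0.28.

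Users of heme outside red cells were set beside Alas1. Of 17 hemoprotein genes 14 were tested, and between lymphoid and myeloid cells 5 were called lower (12.1% of all genes) and 1 higher (17.6%), with a median of 0.05 against 0.11 for all genes. Cybb and Cyba, which encode the flavocytochrome of the NADPH oxidase, differed by -4.98 and -1.83, and Mpo, the myeloperoxidase of neutrophil granules, by -4.65. The lymphoid populations were not alike in Cybb, which read 3861 to 4265 in NK and 882 to 944.5 in B. In CD4T, CD8T and NKT it read 3.28 to 103, and in Monocyte 5388 to 5937. NK also carried the macrophage and neutrophil markers given above, and their part in these differences was not tested. Cat, catalase, was higher in lymphoid cells by 1.58, the direction opposite to Alas1. From LinNeg to Erythroblast 2 of the 14 were called higher, Cat (1.95) and Cyb5a (2.37), and 6 were called lower, with a median of -0.99 against -0.19. The 2 higher calls are near the 14.6% of all genes, and 29.3% of all genes were called lower. Mpo read 7036 and 6559 in LinNeg, where Alas1 was below the myeloid populations alone, against 69.5 and 502 in Neutrophil and 2180 and 2887 in Monocyte.

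Over the means of the 10 populations on the log2 scale, the genes most like Alas2 were Hbb-b2, a beta globin gene (r = 0.980), Slc4a1, the red cell anion exchanger (r = 0.976), Ubp1 (r = 0.968), Atg4d (r = 0.960) and Ehbp1l1 (r = 0.958). Those most like Alas1 were Tmem216 (r = 0.963), Mpc1, a subunit of the mitochondrial pyruvate carrier (r = 0.958), Tmem165 (r = 0.953), Mcee, methylmalonyl-CoA epimerase (r = 0.952), and Siglecf (r = 0.947). The points share arrays and scaling, and each r rests on 10 points among which Erythroblast stands apart, so these are descriptions.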

How the data were processed

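Total RNA of 10 sorted populations was measured on 20 arrays. The deposited values are linear intensities per probe set, and the summarising software is not given in the sources used here. Groups and replicate numbers come from the sample titles. Per the labels' protocols RNA of 3000 cells was amplified in 2 cycles, which favours 3′ ends. Array number limits the precision, with 2 per population. The trimmed mean, without 2% at either end, shows that the authors brought the arrays to one scale, so total RNA per cell is not seen.

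Of 45101 probe sets 64 were controls, and 34945 with 1 gene symbol in the platform annotation were used, 1 per gene by the highest mean. Values were taken to log2(intensity + 6.75), and 14063 of 18193 genes with a population mean above 4.89 (log2) were tested. All arrays entered 1 limma fit (version 3.58.1, R 4.3.3; 1 factor of 10 populations, eBayes with trend, 10 residual and 8.46 prior degrees of freedom) with 6 contrasts and 1 F test. The fit was tested on simulated data. Named genes are the members, genes of the function lists that were called or described, and the 5 most correlated with Alas2 and with Alas1. The members and lists were chosen with earlier results of these data known. Alternatives covered pseudocount, filter, scaling, probe set, trend, samples fitted, a replicate block, limma's treat and leaving out each array. The NK arrays were left out as an alternative chosen after seeing the data. Upstream windows are RefSeq's.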

Additional observations from a re-analysis of the deposited data

How the results depend on the processing

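With 2 arrays per population the calls depend on single arrays where differences are small. In the 2 erythroblast comparisons 387 of 387 member differences kept their direction and call under all alternatives other than the use of single other probe sets, with adjusted p up to 0.02. For KSL against the other mature populations the 2 calls became 1 with no trend, with the pseudocount at the median, with limma's treat test and without the NK arrays (chosen after seeing the data), and ran from 1 to 2 with 1 array left out. For LinNeg against KSL the 5 calls became 0 with treat and ran from 3 to 6 with 1 array left out. For Monocyte against Neutrophil the 1 call became 0 with median centring, no trend, only these populations fitted, the pseudocount at the median, quantile normalization or treat, became 2 with the pseudocount at the 5th percentile, and ran from 0 to 1 with 1 array left out. For lymphoid against myeloid the 3 calls became 5 with quantile normalization. The cause was not tested in these cases.

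Some differences turned sign as follows, and the cause was not tested. With other probe sets, Abcb10 gave -0.05 and -0.40 for KSL against mature, -0.45 for LinNeg against KSL and -1.17 for Monocyte against Neutrophil, and Alad gave -1.51 for the last (-0.13 as the mean of probe sets). The Alad difference of -1.51 was itself called (adjusted p = 0.049), opposite to the called 1.25 of the brighter probe set. Alas1 gave 0.00 and Ppox -0.93 (-0.02 as the mean) for KSL against mature, and Ppox gave 1.07 (0.14 as the mean) for Monocyte against Neutrophil. For lymphoid against myeloid Fech gave 0.23 and 0.55, and from -0.23 to 0.01 with 1 array left out, and Uros gave -0.73 (0.00 as the mean). Uros for Monocyte against Neutrophil gave -0.02 with median centring, -0.09 with quantile normalization, and from -0.33 to 0.46 with 1 array left out, below 0 without Monocyte replicate 2 or Neutrophil replicate 1.

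Over all genes, treat called 4085 in place of 6526 for erythroblasts against other mature cells, 3340 in place of 6168 against LinNeg, 82 in place of 777 for LinNeg against KSL, 1147 in place of 3307 for KSL, 2471 in place of 4180 for lymphoid against myeloid and 211 in place of 1712 for Monocyte against Neutrophil. LinNeg against KSL gave 309 without KSL replicate 2 and 378 without LinNeg replicate 1. Deviations of replicate 1 were little correlated between populations: 1 of 45 pairs of populations had a correlation of deviations over 0.1 (range -0.09 to 0.21). This does not show whether samples of the same number came from the same animals, which no source names. With the replicate block the member calls were 9, 9, 5, 2, 3 and 1 in the 6 comparisons and 8 in the F test, as without it.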
